A study of Mus musculus with 10 samples.

Results

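Periosteal skeletal stem cells (P-SSC) and bone marrow mesenchymal stem cells (BM-MSC) were compared at steady state, taken here to mean bone that had not been transplanted. The titles of these samples also hold the word host, which the study uses for mice that receive a femur. The comparison used the libraries whose labels give periosteum or bone marrow as the tissue and place them at steady state, which are 6 of the 10 libraries of the series, with 3 P-SSC and 3 BM-MSC libraries. Both groups came from mice labelled Wild-type with no treatment, and the labels give neither age nor sex. The other 4 libraries, from marrow of transplanted femurs, did not enter the fit. The study sorted both populations with the same surface markers, CD51 and CD200, after removing CD45, Ter119 and CD31 positive cells, so each library is a pool of sorted cells. The libraries are BM-MSC 1, BM-MSC 3 and BM-MSC 2+4, and P-SSC 1, P-SSC 4 and P-SSC 2+5. A name with 2 numbers probably marks RNA combined from a pair of mice, which the study did where applicable. The labels do not say so. The labels mark all 6 as re-analyses of libraries deposited before. P-values measure the spread between these libraries, and with 3 against 3 an exact permutation test of a single value could not go below 0.1. The study's methods describe a longer enzymatic digestion for scraped periosteum than for flushed marrow, so tissue of origin and tissue handling cannot be told apart in any difference given here.

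Bone carries stromal stem cells in more than one place. Those of the marrow wrap around sinusoids, feed blood stem cells with soluble factors such as the chemokine Cxcl12 and stem cell factor, and can become fat or bone-forming cells. The periosteum is the fibrous sheath on the outer surface of bone, and its stem cells are known for building cartilage and bone in fracture repair.

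The 6 libraries held 17324336 to 20206662 reads in the deposited gene table, and 12217 to 13341 of its 15078 genes had at least 1 read. A gene without reads in a library could still have been present at up to 0.148 to 0.173 RPM (reads scaled by the library total), the level of 3 reads, and this floor covers counting error only. Spearman correlations of log2 values across genes were 0.906 to 0.926 between BM-MSC libraries, 0.826 to 0.929 between P-SSC libraries and 0.663 to 0.776 between a BM-MSC and a P-SSC library. P-SSC 4 stood apart in base composition, with each gene set against its own mean log2 value over the 6 libraries. In P-SSC 4, the median deviation of the 38 tested genes with over 65% GC was 2.52 log2 units above that of genes of 50 to 60% GC. In the other 5 libraries the same difference was -0.687 to -0.338. Calls, list counts and list medians are therefore also given without P-SSC 4 where that ends a call, turns a sign or moves the value by over 1.5 times.

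The labelled cell types were first set against the sort markers. Itgav, which encodes CD51, read 363, 147 and 173 normalized counts (reads divided by a size factor per library) in BM-MSC 1, 2+4 and 3, and 207, 84.1 and 1095 in P-SSC 1, 2+5 and 4. The groups overlapped, with a log2 difference of 0.35 ± 0.90, limma adjusted p = 0.856, and without P-SSC 4 the value was -0.66. Cd200 read 3144, 2875 and 1886 in BM-MSC and 2088, 1697 and 1372 in P-SSC, again with overlapping groups (log2 difference -0.60 ± 0.29, limma adjusted p = 0.228). Ptprc, the gene of the pan-leukocyte marker CD45 that the sort removed, read 16.7, 78 and 62.1 in BM-MSC and 0 in all 3 P-SSC libraries. Both positive sort markers were thus present in all 6 libraries, whereas the excluded marker was at 0 in P-SSC and at 16.7 to 78.0 in BM-MSC. Pecam1, the gene of CD31, was not analysed here.

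P-SSC and BM-MSC differed across a large part of the transcriptome. Of 13396 genes tested with a mean of at least 10 normalized counts, 2055 were called at an adjusted p under 0.05 (limma on log2(value + 1), Benjamini-Hochberg adjustment over all tested genes), which is 15.3% of those tested. Higher in P-SSC were 1052 genes (7.85%) and lower were 1003 (7.49%). Values of the 2 groups did not overlap in 4258 tested genes (31.8%), the share against which each lack of overlap below is to be read. All differences below are P-SSC minus BM-MSC on the log2(value + 1) scale with the standard error, which understates the change of low genes. For genes at or near 0 in one population, the fitted value depends on the added 1 and is not a bound. The median absolute log2 difference among called genes was 4.62, and 2021 of the 2055 were at least 1 on that scale. A test of 3 against 3 libraries seldom calls small changes, so these sizes hold for called genes and do not describe all genes. The first principal component, 56.7% of the variance, placed the BM-MSC libraries at -160.2 to -123.5 and the P-SSC libraries at 129.7 to 154.7. The second, 16.8%, separated P-SSC 2+5 at -126.3 from P-SSC 4 at 140.0, with the other 4 libraries between -25.49 and 19.04. Gene lists are described by their counts, to be read against the 7.85% higher and 7.49% lower of all tested genes. They are also described by their median log2 difference, against 0.03 over all tested genes. A list count of 3 or more, or of 0 that reached 3, is also given without a library that moves it by over 1.5 times, since smaller counts turn on single genes. In bulk libraries, a smaller share of cells of one kind and less RNA per cell cannot be told apart, and this holds for each gene below.

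**Figure D1:**
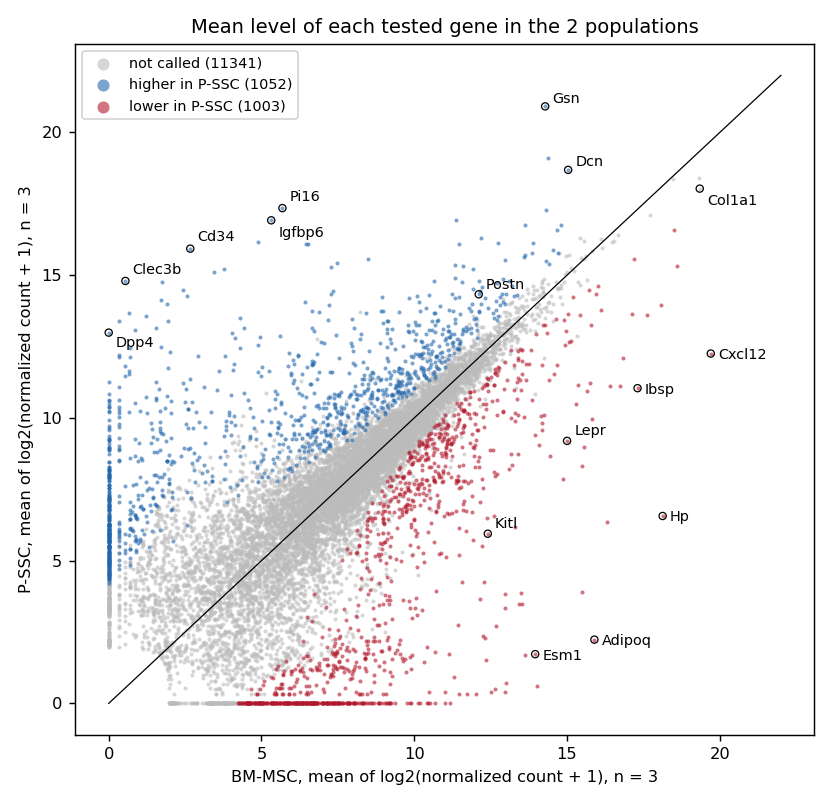
Each point is a tested gene, placed by its mean log2(normalized count + 1) over the 3 BM-MSC libraries (x axis) and the 3 P-SSC libraries (y axis), with genes called higher in P-SSC in blue, lower in red and not called in grey; the diagonal marks equal levels. Marrow genes such as Cxcl12, Hp and Adipoq lie far below the diagonal and Gsn, Pi16, Cd34, Clec3b and Dpp4 far above it.

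The genes that take most of the reads already differed. In P-SSC, Gsn, which encodes the actin-severing protein gelsolin, took 8.54 to 10.6% of all reads in a library. In BM-MSC the top place went to Cxcl12 in BM-MSC 1 and 3 and to Col1a1 in BM-MSC 2+4, and Cxcl12 took 3.63 to 5.5%. Gsn (chromosome 2, 35256380 to 35307892, plus strand, GRCm38 coordinates as throughout) read 19764, 27717 and 14542 normalized counts in BM-MSC and 2217185, 2173686 and 1602141 in P-SSC (log2 difference 6.63 ± 0.35, limma adjusted p = 2.06e-05). Each P-SSC library was above each BM-MSC library. Per length, the mean level of Gsn was 30100 RPKM (reads scaled for library depth and exon length) in P-SSC and 341 in BM-MSC. Col3a1, a fibrillar collagen of loose connective tissue, read 24689, 34493 and 11719 in BM-MSC and 513477, 792758 and 433539 in P-SSC (log2 difference 4.70 ± 0.44, limma adjusted p = 0.000327). Col1a2, a chain of the main collagen of bone, was among the top 5 genes by reads in each of the 6 libraries and did not pass the test (log2 difference -0.92 ± 0.40, limma adjusted p = 0.184). Its partner chain Col1a1 had overlapping groups (log2 difference -1.31 ± 0.49, limma adjusted p = 0.126), as had Sparc, a collagen-binding protein of bone (log2 difference -0.11 ± 0.40, limma adjusted p = 0.901).

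Many factors that maintain blood cells were lower in P-SSC. Of 15 niche factors tested, 9 were lower and 1 was higher, with a median log2 difference of -4.12. Cxcl12 (chromosome 6, 117168535 to 117181367, plus strand), the chemokine that keeps blood stem cells in the marrow, read 995477, 743661 and 846329 in BM-MSC and 7751, 4300.5 and 3503 in P-SSC. The lowest BM-MSC library lay far above the highest P-SSC library (log2 difference -7.45 ± 0.34, limma adjusted p = 1.17e-05). In RPKM, its mean was 5590 in BM-MSC and 30.2 in P-SSC. Kitl (chromosome 10, 100015630 to 100100416, plus strand), which encodes stem cell factor, read 6769.5, 4131 and 5739 in BM-MSC and 56.1, 51 and 77.5 in P-SSC (log2 difference -6.46 ± 0.34, limma adjusted p = 2.06e-05). Its groups did not overlap. Il7, a growth factor for early lymphocytes, read 1422, 1016 and 792 in BM-MSC and 36.4, 0 and 26.2 in P-SSC (log2 difference -6.70 ± 1.31, limma adjusted p = 0.00997). Esm1, an endocan proteoglycan whose part in blood cell maintenance was not examined here, showed the widest gap of the list. It read 26036, 10313 and 15045 in BM-MSC and 1.04, 1.27 and 6.79 in P-SSC (log2 difference -12.23 ± 0.65, limma adjusted p = 2.06e-05). Vcam1, an adhesion molecule for blood cells, was lower as well (log2 difference -4.80 ± 0.39, limma adjusted p = 0.00016), while Ptn, the heparin-binding growth factor pleiotrophin, was the member that was higher (log2 difference 3.72 ± 0.43, limma adjusted p = 0.000849). Igf1 and Csf1 did not pass, with log2 differences of -0.12 and -1.52, but Csf1 was called lower without P-SSC 4 (limma adjusted p = 0.00265). The limma call was lost for Il7 without BM-MSC 1, 2+4 or 3 (adjusted p = 0.0595 to 0.0659).

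Genes of adipocyte-primed stroma followed. Of 22 tested of 24 listed, 10 were lower and 1 higher. Lepr (chromosome 4, 101717404 to 101815352, plus strand), the leptin receptor used to mark marrow stromal cells, read 45208, 24593 and 31792 in BM-MSC and 1034, 210.2 and 921 in P-SSC (log2 difference -5.81 ± 0.58, limma adjusted p = 0.000441). Adipoq (chromosome 16, 23146536 to 23158028, plus strand), which encodes the hormone adiponectin, read 83452, 57828 and 47085 in BM-MSC and 2.08, 7.64 and 2.91 in P-SSC (log2 difference -13.66 ± 0.46, limma adjusted p = 3.46e-06). Adipoq was thus close to the floor in all 3 P-SSC libraries. Hp, the haptoglobin gene, read 257652, 327759 and 280370 in BM-MSC and 286, 178 and 15.5 in P-SSC (log2 difference -11.57 ± 0.91, limma adjusted p = 0.000149). Agt, the angiotensinogen gene, read 77601, 103245 and 69080.1 in BM-MSC and 90.4, 85.3 and 67.9 in P-SSC (log2 difference -9.97 ± 0.25, limma adjusted p = 7.58e-07). Neither gene overlapped between groups. Pparg, the master regulator of fat cell formation, read 1711, 1094 and 724 in BM-MSC and 80, 43.3 and 24.2 in P-SSC (log2 difference -4.62 ± 0.58, limma adjusted p = 0.00131). Cebpa, Fabp4 and Plin2 did not pass the test, with log2 differences of -3.76, -1.85 and 0.59. Without P-SSC 4, Cebpa was called lower and Plin2 higher (limma adjusted p = 0.0188 and 0.029), and Fabp4 was called lower without BM-MSC 3 (limma adjusted p = 0.0357). Cebpe was called lower too, but it also stands in the neutrophil list below. Of 8 mature adipocyte markers tested, Adipoq alone was called, with 0 higher (limma, with 0 at an unadjusted p under 0.05, 0 by edgeR and 0 by DESeq2). Median log2 differences were -1.97 for adipocyte-primed stroma and -0.33 for mature adipocyte markers (-0.54 without P-SSC 4).

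**Figure D2:**
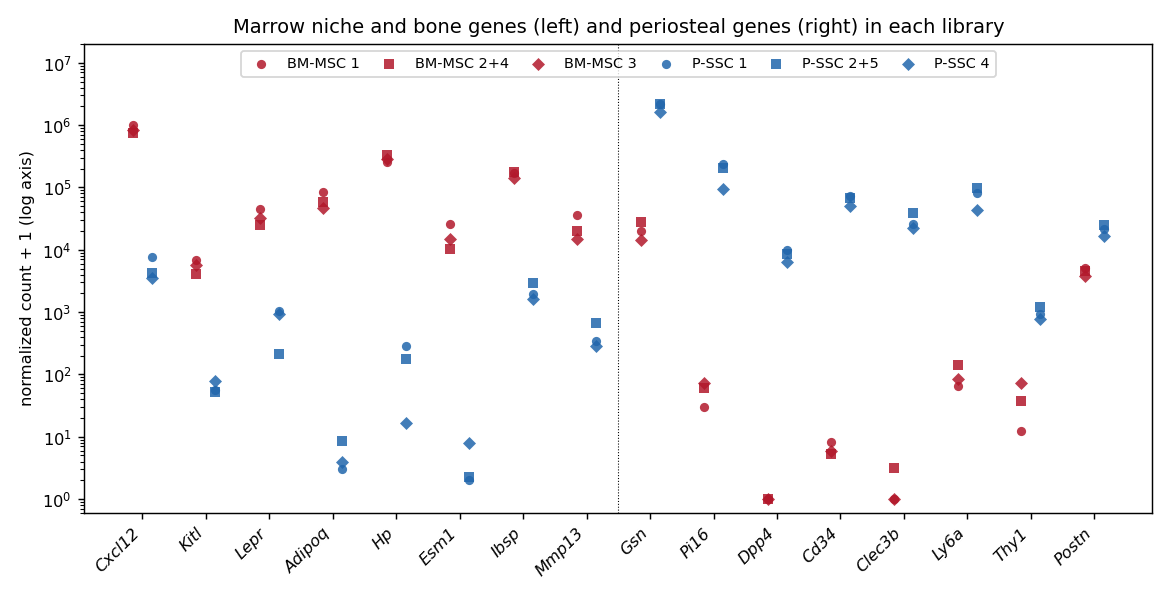
The y axis gives the normalized count + 1 of each gene on a log axis, and each symbol is 1 library, red for BM-MSC and blue for P-SSC. All 16 genes were chosen among called genes. In each, the 3 libraries of a population lie on one side, from Postn, whose groups are closest, to Dpp4, at 0 in every BM-MSC library. Over all tested genes, 31.8% had no overlap between the groups.

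A number of bone-forming genes were also lower in P-SSC. Of 25 osteoblast and mineralization genes tested, 11 were lower and 1 higher. Ibsp, which encodes bone sialoprotein, read 170997, 175274 and 142931 in BM-MSC and 1967, 2929.8 and 1625 in P-SSC (log2 difference -6.27 ± 0.27, limma adjusted p = 9.59e-06). Mmp13, a collagenase of bone and growth cartilage, read 35474, 20199.9 and 14976 in BM-MSC and 339, 656 and 289.8 in P-SSC (log2 difference -5.78 ± 0.41, limma adjusted p = 8.33e-05). Neither gene overlapped between groups, and Ibsp kept a level of at least 1625 in P-SSC. The regulators Runx2 and Sp7 were called lower too (log2 differences of -4.16 ± 0.54, limma adjusted p = 0.00145, and -4.51 ± 0.47, limma adjusted p = 0.000542). Dmp1, an osteocyte matrix protein, read 5128, 3182 and 1795 in BM-MSC and 113, 582 and 19.4 in P-SSC (log2 difference -4.80 ± 1.06, limma adjusted p = 0.0174). Bglap, the osteocalcin gene, did not pass (log2 difference -2.44 ± 0.70, limma adjusted p = 0.0506), and its reads cannot be assigned with certainty because Bglap2 is a near-identical copy. In the median, the log2 difference was -2.46 for osteoblast genes. In limma fits on 5 libraries, no call was made for Dmp1 without BM-MSC 1, 2+4 or 3 or P-SSC 1 (adjusted p = 0.0686 to 0.101).

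The list with the highest share of genes called higher, among all 48 lists, was one known from adventitial fibroblasts, the connective tissue cells that sheathe vessels and organs. All 24 were tested and 22 of them were higher in P-SSC, with 0 lower (limma, with 0 at an unadjusted p under 0.05, 0 by edgeR and 0 by DESeq2) and a median log2 difference of 10.06 (9.94 with genes at or under 3 reads in every BM-MSC library held at that floor, written below as the median at the 3-read floor). Together they made up 4173, 4057 and 3709.6 RPM in BM-MSC and 153324, 141460.3 and 122891 in P-SSC, Gsn included. Clec3b (chromosome 9, 123150946 to 123157432, plus strand), which encodes tetranectin, read 0, 2.11 and 0 in BM-MSC and 26025, 39364 and 22622 in P-SSC, the largest difference of all genes that met the naming rule (log2 difference 14.25 ± 0.59, limma adjusted p = 8.09e-06). Cd34 (chromosome 1, 194938819 to 194961279, plus strand), a sialomucin known from blood stem cells, vessels and fibroblasts, read 7.31, 4.22 and 4.93 in BM-MSC and 72348, 66639 and 50508 in P-SSC (log2 difference 13.26 ± 0.32, limma adjusted p = 7.58e-07). Dpp4, the peptidase CD26, was at 0 in all 3 BM-MSC libraries and read 9731, 8690.2 and 6347 in P-SSC, at least 2676-fold higher against a floor of 3 reads per library. Pi16, a peptidase inhibitor gene that names this kind of fibroblast, read 29.2, 60.1 and 73 in BM-MSC and 236339, 207933 and 94956 in P-SSC (log2 difference 11.66 ± 0.44, limma adjusted p = 6.59e-06). Ly6a, the gene of the stem cell antigen Sca1, read 63.7, 139 and 83.8 in BM-MSC and 81368, 96853 and 43887 in P-SSC (log2 difference 9.58 ± 0.39, limma adjusted p = 8.01e-06), and reads shared with other Ly6 genes make both its level and that of Ly6c1 uncertain. Igfbp6, a binding protein that prefers Igf2, read 39.7, 143 and 9.86 in BM-MSC and 125534, 160683 and 95113 in P-SSC (log2 difference 11.60 ± 0.80, limma adjusted p = 7.19e-05). The pair that did not pass was Igfbp5 and Limch1, with log2 differences of 0.16 and -0.67. The count of 22 was the same in each fit that left out 1 of the 6 libraries.

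Genes used as periosteal progenitor markers moved less uniformly. Of 16 tested, 4 were higher and 1 lower, and the same counts held without P-SSC 4. Postn (chromosome 3, 54361109 to 54391037, plus strand), the matrix protein periostin that gives the study its Cre driver in the grafts, read 5041, 4579 and 3757 in BM-MSC and 21259, 24829 and 16558 in P-SSC (log2 difference 2.22 ± 0.24, limma adjusted p = 0.000639). It was thus at 3757 normalized counts or more in every library, and its groups did not overlap. Angptl7, a secreted angiopoietin-like protein, read 3.13, 2.11 and 0.986 in BM-MSC and 10592, 8939 and 8104 in P-SSC (log2 difference 11.60 ± 0.51, limma adjusted p = 1.06e-05). Thy1, the surface antigen CD90, read 11.5, 36.9 and 71 in BM-MSC and 928, 1215 and 777 in P-SSC (log2 difference 4.88 ± 0.70, limma adjusted p = 0.00238), and Cd55, a complement regulator, 352, 59.1 and 249 in BM-MSC and 9159, 8065 and 6276 in P-SSC (log2 difference 5.47 ± 0.60, limma adjusted p = 0.000708). Grem1, a BMP antagonist that marks other skeletal progenitors, went the other way, with 2284, 1768 and 2829.6 in BM-MSC and 36.4, 0 and 0 in P-SSC (log2 difference -9.40 ± 1.37, limma adjusted p = 0.00265). Ctsk, Prrx1, Gli1, Acta2 and Nes did not pass, with log2 differences of 0.57, 0.68, 1.69, 5.49 and 3.37. Over the tested members, the median log2 difference was 1.83 for periosteal progenitor markers.

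The start regions of 4 of these genes are shown because these genes, Cxcl12 and Ibsp for the marrow and Pi16 and Dpp4 for the periosteum, lie far apart in opposite directions. Each is the RefSeq window of 300 bases on the gene's strand in GRCm38.p6, with 250 bases before the start and 50 after. Capitals mark TATAAA, the core of a TATA box, and TCCCNNGGGA, the palindrome of EBF transcription factors, searched on both strands. The windows lie at chr6:117168285-117168584 (plus strand, Cxcl12), chr5:104299037-104299336 (plus, Ibsp), chr17:29318632-29318931 (plus, Pi16) and chr2:62412182-62412481 (minus, Dpp4).
Cxcl12: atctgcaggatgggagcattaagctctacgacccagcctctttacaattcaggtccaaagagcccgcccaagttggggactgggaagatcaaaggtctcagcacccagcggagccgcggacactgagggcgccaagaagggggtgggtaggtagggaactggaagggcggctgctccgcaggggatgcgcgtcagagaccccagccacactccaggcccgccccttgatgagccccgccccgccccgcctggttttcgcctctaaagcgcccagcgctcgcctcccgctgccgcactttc
Ibsp: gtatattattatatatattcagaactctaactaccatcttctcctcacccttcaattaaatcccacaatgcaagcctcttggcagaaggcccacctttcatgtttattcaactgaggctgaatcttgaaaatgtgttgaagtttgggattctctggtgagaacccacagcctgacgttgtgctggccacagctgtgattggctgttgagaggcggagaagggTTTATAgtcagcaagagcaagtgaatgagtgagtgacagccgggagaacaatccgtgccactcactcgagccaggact
Pi16: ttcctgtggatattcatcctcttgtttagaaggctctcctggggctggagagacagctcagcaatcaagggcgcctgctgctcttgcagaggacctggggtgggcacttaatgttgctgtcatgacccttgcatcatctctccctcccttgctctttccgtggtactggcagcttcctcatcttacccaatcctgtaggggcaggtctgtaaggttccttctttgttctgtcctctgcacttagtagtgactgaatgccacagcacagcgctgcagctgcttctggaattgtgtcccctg
Dpp4: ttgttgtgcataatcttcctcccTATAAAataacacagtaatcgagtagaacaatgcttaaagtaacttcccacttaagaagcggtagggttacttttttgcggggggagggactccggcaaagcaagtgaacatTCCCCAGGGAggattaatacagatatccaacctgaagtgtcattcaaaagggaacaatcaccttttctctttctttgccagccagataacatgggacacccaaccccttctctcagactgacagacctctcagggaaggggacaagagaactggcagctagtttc
Ibsp held TATAAA on the opposite strand with its first base in the window at -28 from the start, and Dpp4 held TATAAA at -227 and the EBF palindrome at -115. Neither string occurred in the Cxcl12 or Pi16 window. TATAAA was in 13.6% of all 32851 windows, in 7.59% of the 13466 windows of tested genes, in 11.4% of the 1111 windows of genes higher in P-SSC and in 12.6% of the 962 windows of genes lower in P-SSC. The EBF palindrome was in 0.904% of all windows, 1.12% of those of tested genes, 1.8% of those of higher genes and 1.35% of those of lower genes. Promoter windows matched 790 of the 1052 higher genes and 744 of the 1003 lower genes by symbol.

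Matrix genes of fibrous tissue and of cartilage went different ways. Of 22 tendon and ligament genes tested, 11 were higher in P-SSC and 3 lower. Cilp, a cartilage and tendon matrix protein, read 2.09, 2.11 and 2.96 in BM-MSC and 30147, 24905 and 29326 in P-SSC (log2 difference 13.03 ± 0.37, limma adjusted p = 1.3e-06). Thbs4, a thrombospondin of tendon, read 9.4, 0 and 3.95 in BM-MSC and 9119.8, 11970.3 and 38668 in P-SSC (log2 difference 12.09 ± 0.91, limma adjusted p = 0.000123), with P-SSC 4 highest. In BM-MSC both stayed under 10 normalized counts. Tnmd, a membrane protein of mature tendon cells, was higher (log2 difference 9.25 ± 1.13, limma adjusted p = 0.00113), whereas Scx, the tendon-specifying transcription factor, did not pass (log2 difference 2.40 ± 1.93, limma adjusted p = 0.503) and Tnc was lower (log2 difference -4.74 ± 0.39, limma adjusted p = 0.000177). Among 26 cartilage genes, 11 were lower and 3 higher. Col9a1, a chain of the cartilage collagen IX, read 3610.3, 2118 and 400.4 in BM-MSC and 0 in all 3 P-SSC libraries, at least 622-fold lower (at least 384-fold without BM-MSC 1). Col2a1, the main collagen of cartilage, was lower too (log2 difference -6.57 ± 0.77, limma adjusted p = 0.00091), and its regulator Sox9 did not pass (log2 difference 0.77 ± 1.16, limma adjusted p = 0.745). Prg4, the joint lubricant lubricin, was higher in P-SSC (log2 difference 4.35 ± 0.28, limma adjusted p = 5.1e-05). The median log2 difference was 1.66 for tendon and ligament genes and -2.69 for cartilage genes. Leaving out 1 library moved the count of lower cartilage genes from 11 to 6 without BM-MSC 1 or 2+4.

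Of 42 collagen chains, 13 were higher in P-SSC and 9 lower. Col14a1, which sits on the surface of collagen fibrils, read 3.13, 3.16 and 0.986 in BM-MSC and 19793, 17450.4 and 17105 in P-SSC (log2 difference 12.44 ± 0.46, limma adjusted p = 6.39e-06). Col6a6, a chain of microfibrillar collagen VI, was at 0 in BM-MSC and read 1538, 1564 and 384 in P-SSC, at least 377-fold higher. Small leucine-rich proteoglycans, which space collagen fibrils, gave 7 higher and 2 lower of 14. Dcn, decorin, read 30268, 42853 and 29328 in BM-MSC and 474788, 481665 and 330631 in P-SSC (log2 difference 3.65 ± 0.30, limma adjusted p = 0.000177), and Fmod, fibromodulin, 3958, 3854 and 1443 in BM-MSC and 82273, 78213 and 52492 in P-SSC (log2 difference 4.63 ± 0.41, limma adjusted p = 0.000245). Both sets of groups stayed apart. Kera, keratocan, was at 0 in BM-MSC and read 2521, 2813 and 2019 in P-SSC, at least 794-fold higher. Podnl1 ran the other way with 5244, 5159 and 4118 in BM-MSC and 23.9, 107 and 34.9 in P-SSC (log2 difference -6.71 ± 0.54, limma adjusted p = 0.000161). Median log2 differences were 0.55 for collagen chains and 0.83 for small leucine-rich proteoglycans.

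Elastic fibre and microfibril genes gave 8 higher and 4 lower of 24. Mfap5, a microfibril glycoprotein, read 55.4, 39 and 10.8 in BM-MSC and 77583, 112571 and 44374 in P-SSC (log2 difference 11.25 ± 0.59, limma adjusted p = 2.06e-05), and Mfap4 was higher too (log2 difference 13.01 ± 0.57, limma adjusted p = 1.06e-05). Fbln2, fibulin 2, read 172, 238 and 15.8 in BM-MSC and 72816, 78392 and 58763 in P-SSC (log2 difference 9.61 ± 0.87, limma adjusted p = 0.000271). Ltbp4, a latent TGF-beta binding protein, read 4320, 3881 and 45857 in P-SSC, about an order of magnitude higher in P-SSC 4 than in the other two, against 151, 4.22 and 11.8 in BM-MSC (log2 difference 8.72 ± 1.34, limma adjusted p = 0.00339, and 7.56 without P-SSC 4). Basement membrane genes gave 11 higher and 4 lower of 25. Col4a5 and Col4a6, a neighbouring pair of collagen IV chains on chromosome X, were both higher (log2 differences of 8.89 ± 1.47, limma adjusted p = 0.00472, and 7.65 ± 1.01, limma adjusted p = 0.00159), whereas Lama1, a laminin chain, read 68.9, 187 and 215 in BM-MSC and 0 in P-SSC, at least 47.8-fold lower. Of 40 matrix proteases and inhibitors, 15 were higher and 8 lower. Adamts16 read 0, 23.2 and 0 in BM-MSC and 3096, 2977 and 1580 in P-SSC (log2 difference 9.72 ± 1.25, limma adjusted p = 0.00145), and Mmp8 and Mmp9, proteases that neutrophils also carry, were lower (log2 differences of -9.25 ± 0.94, limma adjusted p = 0.000485, and -10.37 ± 0.96, limma adjusted p = 0.000295). In the median, the log2 difference was 1.04 for elastic fibre genes, 2.16 for basement membrane genes and 1.11 for matrix proteases and inhibitors (0.63 without P-SSC 4). Single libraries moved the count of lower basement membrane genes from 4 to 1 without BM-MSC 1 and 2 without BM-MSC 2+4 or 3 or P-SSC 2+5.

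**Figure D3:**
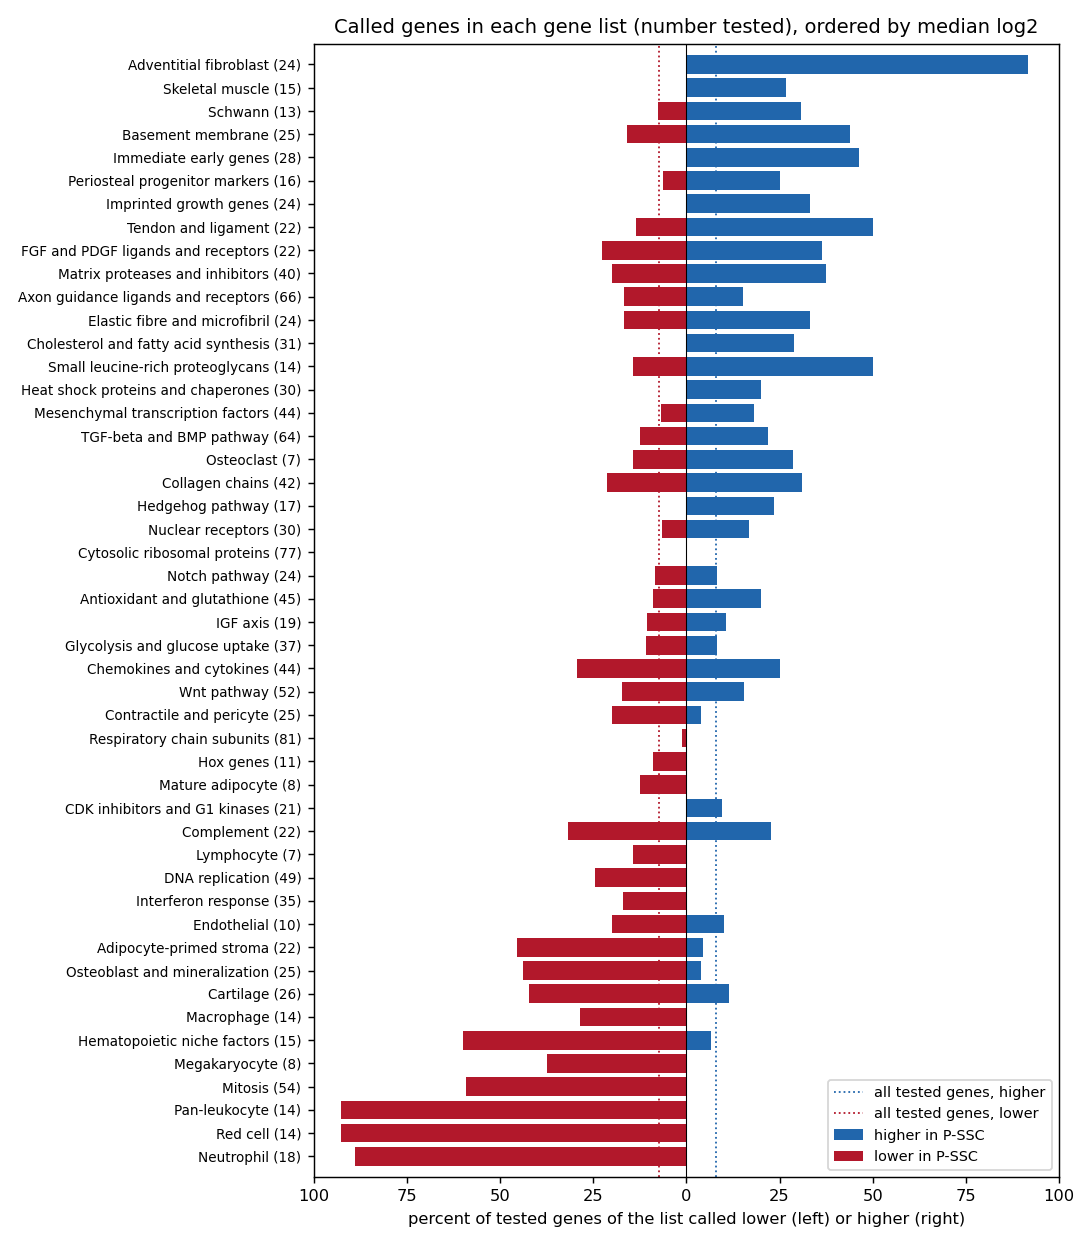
Bars give the percent of tested genes of each list called higher in P-SSC (blue, right) or lower (red, left), with the number tested in parentheses and lists ordered by their median log2 difference; dotted lines mark 7.85% higher and 7.49% lower over all tested genes. Adventitial fibroblast genes reach 91.7% higher, while neutrophil, red cell and pan-leukocyte markers reach 88.9 to 92.9% lower.

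Transcription factors of connective tissue were called in part. Of 44 tested, 8 were higher in P-SSC (18.2%, against 7.85% of all tested genes) and 3 lower (6.82%, near the 7.49% of all tested genes). Osr1, a regulator of irregular connective tissue, read 71, 72.8 and 50.3 in BM-MSC and 3049.6, 4329 and 5519 in P-SSC (log2 difference 6.01 ± 0.36, limma adjusted p = 3.42e-05). Tbx5, a T-box factor of the forelimb, read 7.31, 0 and 0 in BM-MSC and 190.1, 386 and 193 in P-SSC (log2 difference 6.91 ± 1.17, limma adjusted p = 0.00526). Klf4 was higher too (log2 difference 5.36 ± 0.49, limma adjusted p = 0.000276), and it also counts among the immediate early genes below. Prrx2 read 0 in BM-MSC and 43.6, 51 and 1189 in P-SSC, with P-SSC 4 far above the others, and was also called without it. Among the EBF factors, Ebf2 read 136, 252 and 0 in BM-MSC and 5702, 3397 and 2283 in P-SSC (log2 difference 6.76 ± 1.82, limma adjusted p = 0.0399), Ebf3 was lower (log2 difference -4.25 ± 0.88, limma adjusted p = 0.0128) and Ebf1 did not pass (log2 difference -0.53 ± 0.31, limma adjusted p = 0.336). Of 11 Hox genes tested, 1 was called lower (9.09%, near the 7.49% of all tested genes), with 0 higher (limma, with 0 at an unadjusted p under 0.05, 0 by edgeR and 0 by DESeq2). This was Hoxa9, which read 517, 411 and 579.9 in BM-MSC and 133, 99.4 and 134 in P-SSC (log2 difference -2.03 ± 0.41, limma adjusted p = 0.0116). Over the tested members, the median log2 difference was 0.61 for mesenchymal transcription factors (0.24 without P-SSC 4) and -0.22 for Hox genes (-0.47 without P-SSC 4). Lost limma calls were those of Prrx2 without BM-MSC 3 (adjusted p = 0.0534), Ebf2 without BM-MSC 1 or P-SSC 1, 2+5 or 4 (adjusted p = 0.0774 to 0.163), Ebf3 without BM-MSC 1, 2+4 or 3 (adjusted p = 0.0564 to 0.0796) and Hoxa9 without BM-MSC 1 or 3 (adjusted p = 0.055 to 0.0599). The log2 difference of Ebf2 was 4.25 without BM-MSC 3, the BM-MSC library without reads of it.

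Signalling genes were called in both directions. Of 52 Wnt pathway genes, 8 were higher and 9 lower. The ligand Wnt2 read 2.09, 0 and 0.986 in BM-MSC and 1153, 1447 and 1958 in P-SSC (log2 difference 9.66 ± 0.81, limma adjusted p = 0.000185), and the inhibitor Dkk2 was at 0 in BM-MSC and read 2420.2, 1206 and 838 in P-SSC, at least 482-fold higher. The ligand Wnt4 read 187, 459.8 and 234 in BM-MSC and 0, 2.55 and 4.85 in P-SSC (log2 difference -6.63 ± 1.04, limma adjusted p = 0.0038). Ligands thus went both ways, while the pathway's target Axin2 did not pass (log2 difference 1.08 ± 1.32, limma adjusted p = 0.678). The enhancers Rspo2 and Rspo3 were lower (log2 differences of -4.60 ± 1.15, limma adjusted p = 0.0302, and -5.30 ± 1.38, limma adjusted p = 0.0352). The median log2 difference was -0.10 for Wnt pathway genes (-0.35 without P-SSC 4). Leaving out 1 library moved the count of higher Wnt pathway genes from 8 to 3 without BM-MSC 2+4, 4 without BM-MSC 1 or P-SSC 2+5 and 5 without BM-MSC 3 or P-SSC 1 or 4 and the count of lower Wnt pathway genes from 9 to 5 without BM-MSC 3. In limma fits on 5 libraries, no call was made for Rspo2 without BM-MSC 1, 2+4 or 3 or P-SSC 1 or 2+5 (adjusted p = 0.0658 to 0.154) and Rspo3 without BM-MSC 1, 2+4 or 3 or P-SSC 1 (adjusted p = 0.0746 to 0.15).

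TGF-beta and BMP genes gave 14 higher and 8 lower of 64. Apart from Grem1 and the latent binding proteins, the ligand Bmp4 was lower (log2 difference -2.70 ± 0.23, limma adjusted p = 0.000221), and the receptor Tgfbr2 was higher (log2 difference 2.59 ± 0.48, limma adjusted p = 0.00832). Bmp7, another ligand, read 1.04, 66.4 and 1.97 in BM-MSC and 196, 189.8 and 1305 in P-SSC (log2 difference 5.62 ± 1.48, limma adjusted p = 0.0365). The BMP antagonist Chrd read 27.2, 0 and 6.9 in BM-MSC and 229, 309.5 and 1592 in P-SSC (log2 difference 6.32 ± 1.36, limma adjusted p = 0.0152). P-SSC 4 was far above the other libraries for both. Hedgehog genes gave 4 higher and 0 lower (limma, with 2 at an unadjusted p under 0.05, 0 by edgeR and 1 by DESeq2) of 17: the co-receptor Cdon read 1.04, 0 and 2.96 in BM-MSC and 618, 411 and 691 in P-SSC (log2 difference 8.13 ± 0.92, limma adjusted p = 0.000815), while the receptor Ptch1 and the effector Gli1 did not pass, with log2 differences of -3.74 and 1.69. Notch genes gave 2 higher and 2 lower of 24 (8.33% each way, near the 7.85 and 7.49% of all tested genes). The receptor Notch2 was higher (log2 difference 2.02 ± 0.45, limma adjusted p = 0.0182) and Notch3 lower (log2 difference -2.54 ± 0.43, limma adjusted p = 0.00517). Median log2 differences were 0.58 for TGF-beta and BMP genes (0.20 without P-SSC 4), 0.50 for Hedgehog genes (0.02 without P-SSC 4) and 0.29 for Notch genes (-0.13 without P-SSC 4). With 1 library left out, the fit moved the count of higher TGF-beta and BMP genes from 14 to 8 without BM-MSC 3, the count of lower TGF-beta and BMP genes from 8 to 3 without BM-MSC 2+4 or 3, 4 without BM-MSC 1 and 5 without P-SSC 2+5 and the count of higher Hedgehog genes from 4 to 2 without BM-MSC 1, 2+4 or 3 or P-SSC 1. The limma call was lost for Tgfbr2 without BM-MSC 2+4 or 3 (adjusted p = 0.0517 to 0.0534), Bmp7 without BM-MSC 1 or 3 or P-SSC 1, 2+5 or 4 (adjusted p = 0.0893 to 0.156), Chrd without BM-MSC 3 or P-SSC 2+5 or 4 (adjusted p = 0.0552 to 0.0663) and Notch2 without BM-MSC 1 or 2+4 (adjusted p = 0.0825).

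FGF and PDGF ligands and receptors gave 8 higher and 5 lower of 22. Fgf18 was at 0 in BM-MSC and read 74.8, 148 and 696 in P-SSC, at least 99.2-fold higher (at least 36.1-fold without P-SSC 4), and Fgf10 was likewise at 0 in BM-MSC and read 322, 236 and 64 in P-SSC. Fgfr4 was at 0 in BM-MSC and read 265, 874 and 344 in P-SSC, whereas Fgfr3, the receptor of growth plate cartilage, read 399, 312 and 234 in BM-MSC and 1.04, 0 and 61.1 in P-SSC (log2 difference -5.94 ± 1.51, limma adjusted p = 0.0322). Receptors of the family were therefore called in opposite directions. Of the PDGF receptors, Pdgfrb was lower (log2 difference -1.90 ± 0.24, limma adjusted p = 0.00129) and Pdgfra, a common marker of both stem cells, did not pass with all 6 libraries (log2 difference 1.03 ± 0.34, limma adjusted p = 0.0873) but was called higher without P-SSC 2+5 (limma adjusted p = 0.0408). In the IGF axis, 2 were higher and 2 lower of 19 (10.5% each way, against 7.85 and 7.49% of all tested genes). Beside Igfbp6, the insulin receptor substrate Irs2 was higher (log2 difference 2.29 ± 0.53, limma adjusted p = 0.0206), and Pappa, a protease that frees IGF from its binding proteins, read 1675, 2479 and 2176 in BM-MSC and 19.7, 93 and 20.4 in P-SSC (log2 difference -5.91 ± 0.64, limma adjusted p = 0.000637). Igf1, Igf2 and Igf1r did not pass, with log2 differences of -0.12, -1.26 and 0.60. In the median, the log2 difference was 1.56 for FGF and PDGF genes (1.70 at the 3-read floor, 0.78 without P-SSC 4) and 0.16 for IGF axis genes (-0.03 without P-SSC 4). Single libraries moved the count of lower FGF and PDGF genes from 5 to 2 without BM-MSC 1, 2+4 or 3 and 3 without P-SSC 1. Lost limma calls were those of Fgfr3 without BM-MSC 1, 2+4 or 3 or P-SSC 1 or 2+5 (adjusted p = 0.0978 to 0.133) and Irs2 without BM-MSC 1 or 3 or P-SSC 1 or 2+5 (adjusted p = 0.0743 to 0.102).

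Secreted signals to blood and nerve cells differed in kind. Of 44 chemokines and cytokines tested, 11 were higher in P-SSC and 13 lower. Ccl11, the eosinophil attractant eotaxin, read 1.04, 0 and 0 in BM-MSC and 5268, 7359 and 2325 in P-SSC (log2 difference 11.79 ± 0.76, limma adjusted p = 5.55e-05). Il33, an alarmin held in nuclei of barrier and stromal cells, read 44.9, 53.8 and 0.986 in BM-MSC and 3442, 4619 and 3543 in P-SSC (log2 difference 7.81 ± 1.16, limma adjusted p = 0.00287). The lower members were led by Cxcl12, Il7 and Kitl among the stromal factors, but they also held Il1b and Osm, which blood cells make (log2 differences of -6.65 ± 1.45, limma adjusted p = 0.0163, and -6.35 ± 1.28, limma adjusted p = 0.0117). Of 22 complement genes, 5 were higher and 7 lower, and successive parts of the membrane attack complex split: C7 read 13.6, 0 and 2.96 in BM-MSC and 9830.3, 8154 and 15061 in P-SSC (log2 difference 11.43 ± 0.90, limma adjusted p = 0.00015), while C6 read 4998, 6802 and 5746 in BM-MSC and 0, 1.27 and 0 in P-SSC (log2 difference -12.11 ± 0.67, limma adjusted p = 2.24e-05). Axon guidance genes gave 10 higher and 11 lower of 66. The ligand Ntn1, netrin 1, was at 0 in BM-MSC and read 923, 743 and 4358 in P-SSC, at least 651-fold higher (at least 270.0-fold without P-SSC 4), and Sema3c read 0, 1.05 and 1.97 in BM-MSC and 11460, 5625 and 9781 in P-SSC (log2 difference 12.20 ± 0.65, limma adjusted p = 2.06e-05). Interferon response genes gave 0 higher (limma, with 2 at an unadjusted p under 0.05, 0 by edgeR and 2 by DESeq2) and 6 lower of 35. Among them Rtp4 read 1416, 1808 and 1661 in BM-MSC and 592, 344 and 191 in P-SSC (log2 difference -2.25 ± 0.42, limma adjusted p = 0.00843), and Ifit1 did not pass, with a log2 difference of -0.37. Over the tested members, the median log2 difference was 0.05 for chemokines and cytokines (0.01 without P-SSC 4), -0.68 for complement genes, 1.06 for axon guidance genes (0.20 without P-SSC 4) and -1.0 for interferon response genes. Dropping 1 library took the count of lower interferon response genes from 6 to 1 without BM-MSC 3, 2 without BM-MSC 1 or 2+4 and 3 without P-SSC 2+5. In limma fits on 5 libraries, no call was made for Il1b without P-SSC 1 (adjusted p = 0.0635) and Rtp4 without BM-MSC 3 (adjusted p = 0.0507).

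Many genes of dividing cells were lower in P-SSC. Of 54 mitosis genes tested, 32 were lower and 0 higher (limma, with 0 at an unadjusted p under 0.05, 0 by edgeR and 0 by DESeq2). Plk1, a mitotic kinase, read 306, 474 and 1045 in BM-MSC and 1.04, 0 and 0 in P-SSC (log2 difference -8.72 ± 0.97, limma adjusted p = 0.000728). Aurkb, another mitotic kinase, read 188, 317 and 1172 in BM-MSC and 0 in P-SSC, at least 170.3-fold lower (at least 77-fold without BM-MSC 3). BM-MSC 3 was highest for both. Ccnb1, cyclin B1, read 303, 151 and 1198 in BM-MSC and 0, 1.27 and 0 in P-SSC (log2 difference -8.18 ± 1.12, limma adjusted p = 0.00192). Of 49 DNA replication genes, 12 were lower and 0 higher (limma, with 1 at an unadjusted p under 0.05, 0 by edgeR and 0 by DESeq2), among them Tk1, thymidine kinase, with 220.4, 619 and 1389 in BM-MSC and 3.12, 24.2 and 22.3 in P-SSC (log2 difference -5.42 ± 1.00, limma adjusted p = 0.00791), while Pcna did not pass (log2 difference -0.78 ± 0.36, limma adjusted p = 0.209).  Among 21 regulators of entry into the cycle, 2 were higher and 0 lower (limma, with 3 at an unadjusted p under 0.05, 0 by edgeR and 0 by DESeq2). The higher share, 9.52%, was near the 7.85% of all tested genes. Cdkn1a, the CDK inhibitor p21, read 1791, 2548 and 2714 in BM-MSC and 10318, 8099 and 4628 in P-SSC (log2 difference 1.65 ± 0.33, limma adjusted p = 0.0116), and Ccnd2, cyclin D2, 1749, 1570.3 and 1734 in BM-MSC and 4063, 3438 and 3374 in P-SSC (log2 difference 1.10 ± 0.21, limma adjusted p = 0.00948). Neither overlapped between groups. Cdkn1c, the inhibitor p57, read 111, 109.7 and 57.2 in BM-MSC and 147, 217 and 1423 in P-SSC and did not pass (log2 difference 2.00 ± 0.86, limma adjusted p = 0.184), nor did Cdk4 (log2 difference -0.25 ± 0.24, limma adjusted p = 0.576). The median log2 difference was -4.99 for mitosis genes (-4.67 at the 3-read floor), -0.96 for DNA replication genes and -0.37 for cell cycle entry genes (-0.91 without P-SSC 4). Leaving out 1 library moved the count of lower mitosis genes from 32 to 18 without BM-MSC 3 and the count of lower DNA replication genes from 12 to 2 without BM-MSC 3, 3 without BM-MSC 2+4, 6 without P-SSC 2+5 and 7 without BM-MSC 1. The limma call was lost for Tk1 without BM-MSC 2+4 or 3 (adjusted p = 0.0512 to 0.0608) and Cdkn1a without BM-MSC 1 or P-SSC 1 or 2+5 (adjusted p = 0.0529 to 0.0626). For the cell cycle entry genes the median lay below 0 with and without P-SSC 4 although both called members were higher.

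Blood-cell markers moved with these genes. Of 14 red cell genes, 13 were lower in P-SSC, as were 16 of 18 neutrophil and 13 of 14 pan-leukocyte genes, and none of the 3 lists had a higher one by limma, edgeR or DESeq2 or at an unadjusted limma p under 0.05. In BM-MSC 1, 2+4 and 3 the red cell list summed to 2568, 2087 and 8529 RPM, and in P-SSC 1, 2+5 and 4 to 7.57, 21.7 and 56. The neutrophil list summed to 1921, 3599.8 and 5651 in BM-MSC and 9.3, 12.4 and 2.12 in P-SSC. The pan-leukocyte list summed to 356, 428 and 561 and 25, 11.7 and 13.9. BM-MSC 3, the library with the highest sums of red cell, neutrophil and pan-leukocyte markers, also had the highest sum of mitosis genes, 1596 RPM against 672 and 649.6 in the other BM-MSC libraries and 277, 291 and 215 in P-SSC. The part of blood cells in the lower mitosis, replication, interferon, protease and complement genes was not tested. Alas2, the heme synthesis enzyme that defines red cell precursors, was at 0 in all 3 P-SSC libraries and read 967, 842 and 3396 in BM-MSC. Ltf, the lactoferrin of neutrophil granules, read 3119, 14357 and 12334 in BM-MSC and 0, 1.27 and 0.969 in P-SSC (log2 difference -12.28 ± 0.77, limma adjusted p = 4.5e-05). Macrophage genes gave 4 lower of 14, lymphocyte genes 1 lower of 7, and megakaryocyte genes 3 lower of 8. Median log2 differences were -7.62 for red cell markers (-7.14 at the 3-read floor), -8.06 for neutrophil markers (-8.16 at the 3-read floor), -6.12 for pan-leukocyte markers (-6.08 at the 3-read floor), -3.87 for macrophage markers, -0.79 for lymphocyte markers (-0.28 without P-SSC 4) and -4.32 for megakaryocyte markers (-3.81 at the 3-read floor). With 1 library left out, the fit moved the count of lower pan-leukocyte markers from 13 to 7 without BM-MSC 3 and the count of lower macrophage markers from 4 to 0 without BM-MSC 2+4, 2 without BM-MSC 3 or P-SSC 1 or 4 and 7 without P-SSC 2+5.

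**Figure D4:**
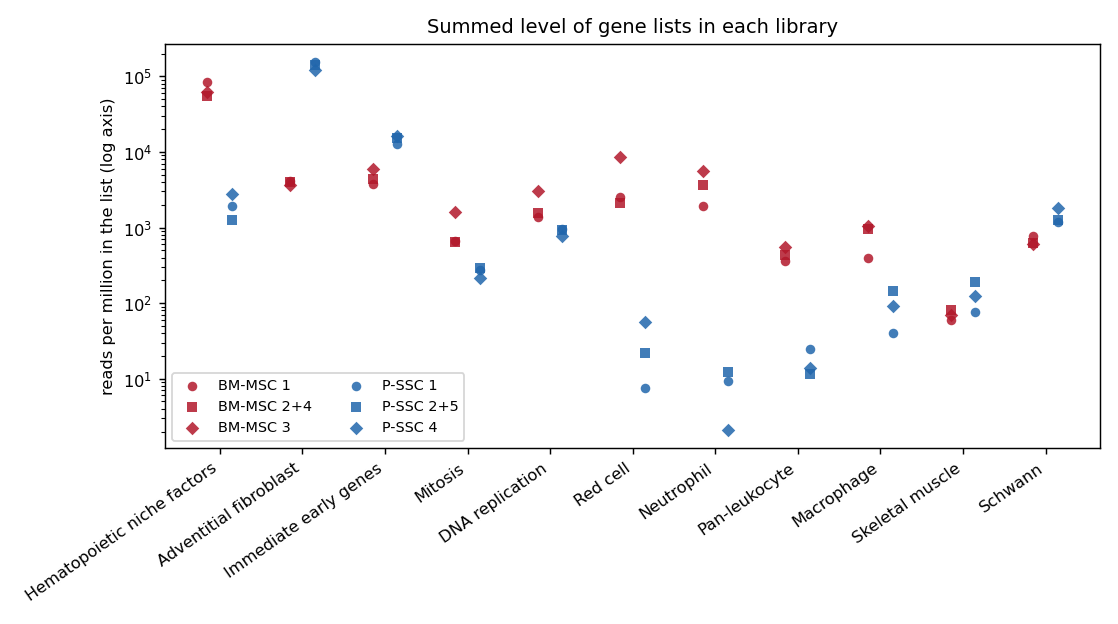
The y axis gives the summed RPM of all genes of a list in a library, on a log axis, with red symbols for BM-MSC and blue for P-SSC libraries. Red cell, neutrophil and pan-leukocyte markers are at 356 to 8529 RPM in BM-MSC and at 2.12 to 56.0 in P-SSC, and the mitosis list is highest in BM-MSC 3.

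Some markers of tissues next to the periosteum were called higher in P-SSC, at levels that varied widely. Of 15 skeletal muscle genes tested, 4 were higher and 0 lower (limma, with 0 at an unadjusted p under 0.05, 0 by edgeR and 0 by DESeq2). The actin Acta1 was at 0 in BM-MSC and read 547, 893 and 206 in P-SSC, at least 178-fold higher, and Pax7, the factor of muscle satellite cells, read 0, 0 and 5.92 in BM-MSC and 56.1, 204 and 59.1 in P-SSC (log2 difference 5.54 ± 1.24, limma adjusted p = 0.0185). The whole muscle list summed to 59.3, 81 and 68.7 RPM in BM-MSC and 75.3, 189.6 and 124 in P-SSC, with P-SSC 1 inside the BM-MSC range. Of 13 Schwann cell genes, 4 were higher and 1 lower, and the list summed to 775, 626 and 601 and 1179.5, 1272 and 1840.4. Erbb3, a receptor of nerve-derived neuregulin, read 0, 0 and 4.93 in BM-MSC and 267, 620.4 and 412 in P-SSC (log2 difference 7.82 ± 1.07, limma adjusted p = 0.00198), and Sox10, the defining factor of the lineage, 3.13, 0 and 0 in BM-MSC and 20.8, 49.7 and 286 in P-SSC (log2 difference 5.41 ± 1.34, limma adjusted p = 0.0289). Among 10 endothelial genes, Tie1 and Emcn were lower and at 0 in P-SSC, while Tek, the angiopoietin receptor, read 1.04, 0 and 0 in BM-MSC and 6869, 4820.2 and 3254 in P-SSC (log2 difference 11.87 ± 0.71, limma adjusted p = 3.49e-05). The whole endothelial list summed to 117, 151 and 122 RPM in BM-MSC and 422, 317 and 294 in P-SSC. These sums include Tek, the only member called higher with all 6 libraries. They do not show a rise across the list, whose median log2 difference was below 0. The vessel marker Cdh5 did not pass (log2 difference 3.83 ± 1.38, limma adjusted p = 0.113), though it was called higher without P-SSC 1 (limma adjusted p = 0.0465). Osteoclast genes gave 2 higher and 1 lower of 7, with Acp5 and Ctsk not passing at log2 differences of -0.52 and 0.57. Contractile and pericyte genes gave 1 higher and 5 lower of 25, led by Tpm1 with 22115, 26775 and 24319.7 in BM-MSC and 2799, 3587 and 2551 in P-SSC (log2 difference -3.04 ± 0.22, limma adjusted p = 9.77e-05). In the median, the log2 difference was 3.94 for skeletal muscle markers (3.77 at the 3-read floor), 3.90 for Schwann cell markers (3.80 at the 3-read floor), -1.02 for endothelial markers (-1.58 without P-SSC 4), 0.57 for osteoclast markers and -0.14 for contractile genes (-0.02 without P-SSC 4). Single libraries moved the count of higher Schwann cell markers from 4 to 2 without BM-MSC 3. In limma fits on 5 libraries, no call was made for Pax7 without BM-MSC 1 or 2+4 or P-SSC 1 or 2+5 (adjusted p = 0.0504 to 0.0657) and Sox10 without BM-MSC 2+4 or 3 or P-SSC 2+5 (adjusted p = 0.0612 to 0.0992).

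Many rapid-response genes were higher in P-SSC. Of 28 immediate early genes tested, 13 were higher and 0 lower (limma, with 0 at an unadjusted p under 0.05, 0 by edgeR and 0 by DESeq2), and the list summed to 3804, 4362 and 6041 RPM in BM-MSC and 12874, 15450.2 and 16499.6 in P-SSC. Atf3, a stress-induced transcription factor, read 283, 525 and 764 in BM-MSC and 17579, 20556 and 7416 in P-SSC (log2 difference 4.84 ± 0.48, limma adjusted p = 0.000417). Fos, a subunit of the AP-1 factor, read 20847, 29184 and 38402 in BM-MSC and 114838, 151803 and 80967 in P-SSC (log2 difference 1.97 ± 0.34, limma adjusted p = 0.00567). Fos was high in both populations, and neither gene overlapped between them. Jun did not pass, with P-SSC 4 at 23884 and the other 5 libraries at 547 to 1049.6 (log2 difference 1.94 ± 1.15, limma adjusted p = 0.344). Of 30 heat shock proteins and chaperones, 6 were higher and 0 lower (limma, with 0 at an unadjusted p under 0.05, 0 by edgeR and 0 by DESeq2). Hspb8, a small heat shock protein, read 190.1, 127 and 58.2 in BM-MSC and 4685, 6076 and 3992 in P-SSC (log2 difference 5.42 ± 0.45, limma adjusted p = 0.000177), and its partner Bag3 1045, 1267 and 1079 in BM-MSC and 5379, 5802 and 3601 in P-SSC (log2 difference 2.10 ± 0.26, limma adjusted p = 0.00117). The heat-inducible Hspa1a did not pass with all 6 libraries (log2 difference 2.09 ± 0.81, limma adjusted p = 0.14) but was called higher without BM-MSC 3 (limma adjusted p = 0.0251). Both lists are known to respond to tissue digestion, which differed between the groups, and tissue and handling cannot be told apart here. Over the tested members, the median log2 difference was 1.96 for immediate early genes and 0.72 for heat shock proteins. Dropping 1 library took the count of higher immediate early genes from 13 to 5 without P-SSC 2+5, 7 without BM-MSC 1 and 8 without BM-MSC 2+4 or P-SSC 1 and the count of higher heat shock proteins from 6 to 3 without P-SSC 1.

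Ribosomal and respiratory genes were rarely called. Of 77 cytosolic ribosomal proteins, 0 were called (limma), with 2 higher and 1 lower at an unadjusted p under 0.05 and 0 by edgeR or DESeq2. Of 81 respiratory chain subunits, 1 was lower, Cox4i2, a subunit induced by low oxygen, with 518, 939.7 and 435 in BM-MSC and 89.3, 308 and 89.2 in P-SSC (log2 difference -2.13 ± 0.60, limma adjusted p = 0.047). Of 37 glycolysis and glucose uptake genes, 3 were higher and 4 lower (8.11 and 10.8%), near the 7.85 and 7.49% of all tested genes. Among the called members, isozymes split: Pfkl, the liver-type phosphofructokinase, read 4032, 5389 and 3150.2 in BM-MSC and 559, 698 and 393 in P-SSC (log2 difference -2.93 ± 0.32, limma adjusted p = 0.000639), while Pfkp, the platelet type, was higher (log2 difference 2.05 ± 0.25, limma adjusted p = 0.00106). Ldhb, a lactate dehydrogenase, was lower (log2 difference -2.69 ± 0.28, limma adjusted p = 0.00051) and Ldha did not pass (log2 difference -0.46 ± 0.27, limma adjusted p = 0.335). Cholesterol and fatty acid synthesis gave 9 higher and 0 lower (limma, with 1 at an unadjusted p under 0.05, 0 by edgeR and 1 by DESeq2) of 31. Acly, which makes cytosolic acetyl-CoA, read 2480.4, 2066 and 2185 in BM-MSC and 10398, 7486 and 7854 in P-SSC (log2 difference 1.92 ± 0.22, limma adjusted p = 0.000901). Its groups did not overlap. The median log2 difference was 0.32 for ribosomal proteins (0.62 without P-SSC 4), -0.22 for respiratory subunits (0.06 without P-SSC 4), 0.08 for glycolysis genes (0.30 without P-SSC 4) and 1.01 for cholesterol and fatty acid genes. Leaving out 1 library moved the count of higher ribosomal proteins from 0 to 5 without P-SSC 4, the count of higher glycolysis genes from 3 to 1 without BM-MSC 1 or 3 or P-SSC 1 and the count of higher cholesterol and fatty acid genes from 9 to 5 without BM-MSC 1, 2+4 or 3 or P-SSC 1 or 2+5. Lost limma calls were those of Cox4i2 without BM-MSC 1, 2+4 or 3 or P-SSC 1 or 4 (adjusted p = 0.11 to 0.199).

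Of 45 antioxidant and glutathione genes, 9 were higher and 4 lower. Sod3, the extracellular superoxide dismutase, read 794, 502 and 422 in BM-MSC and 3409, 4848 and 30728 in P-SSC (log2 difference 3.85 ± 0.74, limma adjusted p = 0.00945, and 2.88 without P-SSC 4). Mt2, a metallothionein, was higher (log2 difference 3.45 ± 0.86, limma adjusted p = 0.0299), and Gpx3, the secreted glutathione peroxidase and one of the top genes of BM-MSC by reads, read 304019, 489040.2 and 344026 in BM-MSC and 124984, 82819 and 94048 in P-SSC (log2 difference -1.91 ± 0.33, limma adjusted p = 0.006). Gpx1, the cytosolic form, read 12897, 18377 and 27423 in BM-MSC and 28325, 36777 and 19365 in P-SSC with overlapping groups (log2 difference 0.54 ± 0.35, limma adjusted p = 0.386). Nuclear receptors gave 5 higher (16.7%) and 2 lower (6.67%, near the 7.49% of all tested genes) of 30. Among the higher ones, Rorb was at 0 in BM-MSC and read 303, 103 and 162 in P-SSC, at least 61.4-fold higher. Imprinted growth genes gave 8 higher and 0 lower (limma, with 2 at an unadjusted p under 0.05, 0 by edgeR and 0 by DESeq2) of 24. Meg3, a maternally expressed RNA, was at 0 in BM-MSC and read 178, 299 and 58.2 in P-SSC, at least 57.8-fold higher (at least 38.2-fold without P-SSC 2+5), and H19, another maternally expressed RNA, read 7.31, 0 and 1.97 in BM-MSC and 304, 322 and 174 in P-SSC (log2 difference 6.47 ± 1.07, limma adjusted p = 0.00479). Their paternally expressed neighbours Dlk1 and Igf2 did not pass, with log2 differences of 2.50 and -1.26. Median log2 differences were 0.19 for antioxidant genes (0.39 without P-SSC 4), 0.37 for nuclear receptors (-0.01 without P-SSC 4) and 1.75 for imprinted genes. With 1 library left out, the fit moved the count of higher antioxidant genes from 9 to 3 without BM-MSC 2+4 or P-SSC 1, 4 without BM-MSC 1 and 5 without BM-MSC 3 or P-SSC 2+5, the count of higher nuclear receptors from 5 to 2 without P-SSC 1 and 3 without BM-MSC 1 or 3 and the count of higher imprinted genes from 8 to 5 without BM-MSC 1 or 3 or P-SSC 1 or 2+5. In limma fits on 5 libraries, no call was made for Sod3 without BM-MSC 2+4 or 3 (adjusted p = 0.0573 to 0.0694), Mt2 without BM-MSC 1 or 2+4 or P-SSC 1 or 2+5 (adjusted p = 0.0869 to 0.126) and Gpx3 without BM-MSC 3 (adjusted p = 0.0557).

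Some genes had reads almost solely in one population. At or under 3 reads in every library of one population and at 100 or more normalized counts in every library of the other were 93 genes on the P-SSC side and 85 on the BM-MSC side. The P-SSC side held, beside genes named above, Ackr2, a receptor that scavenges chemokines, with 1.04, 1.05 and 0 in BM-MSC and 5251, 5978 and 5625 in P-SSC, Has2, a hyaluronan synthase, with 0, 1.05 and 0 in BM-MSC and 1262, 1118 and 799 in P-SSC, and Gap43, a growth cone protein, with 0 in BM-MSC and 1970.4, 2255 and 821 in P-SSC. It also held Krt19 and Krtdap, genes of epithelia, with 1569, 876 and 151 and 1753, 6768 and 857 in P-SSC. On the BM-MSC side stood stromal and secreted genes such as Kng1, kininogen, with 19103, 16915 and 14232 in BM-MSC and 0, 2.55 and 0 in P-SSC, and Serpina12, vaspin, with 4366, 4412 and 3829 in BM-MSC and 1.04, 0 and 0 in P-SSC. The same side held blood-cell genes such as Gata1, the red cell and platelet regulator, with 272, 318 and 1315 in BM-MSC, and Cd177, a neutrophil surface protein, with 547, 1727 and 2725, both at 0 in P-SSC. The list of the 12 widest differences downward also held Gdpd2, a phosphodiesterase of bone-forming cells, with 49305, 45513 and 43453 in BM-MSC and 1.04, 56 and 28.1 in P-SSC, Slc26a7, an anion exchanger, with 4631, 2230.5 and 3721 in BM-MSC and 0, 0 and 0.969 in P-SSC, and Ngp, a neutrophil granule protein, with 5066, 15548 and 25536 in BM-MSC and 14.5, 1.27 and 0 in P-SSC. Upward it held Tnxb, tenascin X, with 0, 1.05 and 0 in BM-MSC and 11238, 11195 and 10109 in P-SSC, Myoc, myocilin, with 2.09, 3.16 and 0 in BM-MSC and 14070.3, 8187 and 15526 in P-SSC, and Dpt, dermatopontin, with 2.09, 7.38 and 4.93 in BM-MSC and 25108, 31456 and 15506 in P-SSC. Serpina3f and Serpina3g, closely related serpin genes, were both on the BM-MSC side, and reads that they share cannot be divided between them with certainty.

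Most calls were kept without P-SSC 4. In that fit of 3 BM-MSC and 2 P-SSC libraries, 2251 genes were called (16.8%), 1068 higher and 1183 lower, and 1775 of the 2055 called with all 6 libraries were called the same way. None of the 2055 changed sign in that fit. They were picked by a fit that holds all of these libraries, so sign changes were unlikely from the start. Niche factors then gave 11 lower of 15, adventitial fibroblast genes 22 higher of 24, mitosis genes 24 lower of 54 and DNA replication genes 8 lower of 49. Correcting each library for gene GC content by loess instead gave 2023 called genes, 1015 higher and 1008 lower. Of the genes given above by name, Ebf2, Bmp7, Chrd and Cox4i2 lost their call without P-SSC 4.

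**Figure D5:**
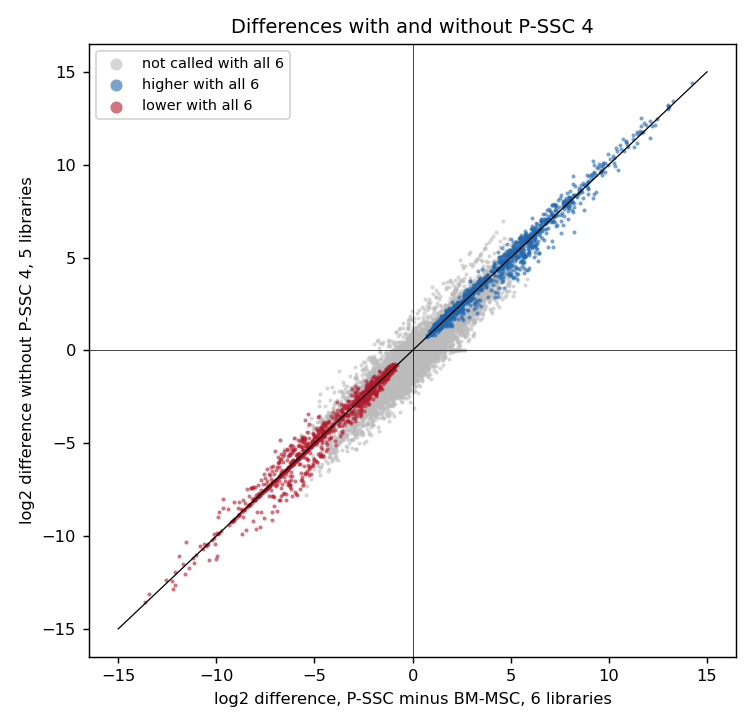
Each point is a tested gene, with its log2 difference between P-SSC and BM-MSC from all 6 libraries on the x axis and from the 5 libraries without P-SSC 4 on the y axis, coloured by its call with all 6. The called genes, which were picked by the fit on the x axis, lie along the diagonal of equal values, and none crosses 0.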

How the data were processed

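RNA-seq libraries of sorted periosteal and marrow stromal cells were taken from a gene table in which the authors deposited normalized counts, a signal equal to each gene's reads divided by one size factor per library. Per the labels, FastQC 0.11.5, cutadapt 1.15, STAR 2.5, Subread 1.4.6 and DESeq2 1.26.0 were used with GRCm39, while the study's methods give GRCm38. Coordinates here are those of GENCODE M21 (GRCm38), which held 15052 of the 15078 gene IDs. The library kit may or may not have kept strand, so antisense or overlapping genes cannot be told apart. Values of the 6 steady-state libraries were whole multiples of one read in 100% of cases (within 0.01 of a read), and reads were recovered from them for levels and for edgeR 4.0.16 and DESeq2 1.42.0. The table held no gene under 22 reads over the 10 libraries, so low genes had been removed before deposit. Library totals were 17324336 to 20206662 reads.

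The main test was limma 3.58.1 (R 4.3.3) with a trended empirical Bayes fit of log2(value + 1) on the 6 libraries for genes with a mean of at least 10, and Benjamini-Hochberg adjustment at 0.05. On simulated counts with the same library sizes, limma called 1 of 50 genes changed 2-fold, 13 of 50 changed 4-fold, 40 of 50 changed 16-fold and 49 of 50 changed 64-fold, and 9 of 13196 unchanged genes. The changed genes were drawn among those with a mean of at least 100, so changes in lower genes are not covered. The simulation held no GC shift like that of P-SSC 4, and each gene had the same dispersion in both groups. Alternatives changed the pseudocount, filter, scaling, tool, GC correction, libraries and threshold. Replicates differed by more than counting noise (chi-square over degrees of freedom of 68.1 to 281), so each counted as 1.

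Genes were named by rule: the 12 widest differences each way among called genes with a mean of at least 100 and no overlap, up to 4 called members per list with the largest change, defining members that did not pass, sort markers, genes the study singles out, genes at or under 3 reads in one population with at least 100 normalized counts in every library of the other, and the top 5 genes by reads. Called genes outside it were chosen after their values were seen: Bmp4, Cebpe, Col2a1, Ebf3, Fos, Il1b, Ly6a, Ly6c1, Osm, Pdgfrb, Pfkp, Pi16, Prg4, Ptn, Rspo2, Rspo3, Runx2, Sp7, Tgfbr2, Tnc, Tnmd and Vcam1. The members and the 48 gene lists were chosen with earlier results of these data known. The 4 transplant libraries were used only in one alternative. Some genes that met the rule are not reported here. Promoter windows came from RefSeq.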

Additional observations from a re-analysis of the deposited data

How the results depend on the processing

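Across 18 refits, the calls at an adjusted p under 0.05 ranged from 1395 with all 10 libraries in the fit to 2574 by DESeq2 on recovered reads, against 2055, and the share that was higher in P-SSC from 47.4 to 55.0% against 51.2%. At an adjusted p under 0.01, limma called 1133 genes, 600 higher and 533 lower. With 1 library left out, limma called 1488 to 2251 genes, 737 to 1068 higher and 681 to 1183 lower. None of the 2055 genes was called the opposite way in any alternative, and 313 of the higher and 301 of the lower genes were called in every one of the 18 refits. The refits reuse the same libraries, so opposite calls were unlikely from the start. A gene that a refit did not include, as in the refit limited to means of at least 100, counted there as not called. Of 5730 values of named genes under alternatives, 5407 kept their direction and side of the threshold, 313 lost the call, 6 gained it and 4 changed sign. The sign changed for 2 uncalled genes: Itgav was -0.66 to 1.18 with 1 library left out, negative only without P-SSC 4, and Sparc was 0.41 after quantile normalization and -0.38 to 0.17 with 1 library left out, positive without P-SSC 4 and without BM-MSC 2+4. The cause was not tested. Quantile normalization shifted the median log2 difference of all genes by -0.11. Of 1728 counts over gene lists, 1489 stayed within 1.5 times. Depth limits statements on genes near 3 reads, and 3 libraries a group limit the calls at small fold changes. No paired analysis was possible because the labels match a single library of one group to a single library of the other only for number 1: BM-MSC 2+4 shares a number with both P-SSC 2+5 and P-SSC 4, and BM-MSC 3 with none.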
